A study of Homo sapiens with 9 samples.

Results

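Genes of glycolysis and of the response to low oxygen were examined in VCaP, a cell line established from prostate cancer. The 39 genes were listed by name from textbook roles in glucose use and in hypoxia signalling, except *MXRA5*, which encodes a matrix protein. All 39 were found among the 19918 gene symbols of the count files. Of these, 36 passed the expression filter and were tested. RNA sequencing counts were available for 3 groups of 3 libraries. One group of cells received si025 and another si033, each designed against exon 1 of the long non-coding RNA *IGF1R-AS1*, and the control group received a control siRNA. Transfection was in reverse, with 100 pmol of siRNA in each case, and cells were collected after 72 h. The groups therefore share 1 cell line and 1 time point, and *IGF1R-AS1* itself was not analysed here, so the depth of its knockdown is not known from these values. The study calls its knockdown replicates biological, while neither it nor the labels say whether the libraries of a group came from separate cultures, so p values measure only the spread between these libraries.

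In cells with enough oxygen, the prolyl hydroxylases encoded by the *EGLN* genes mark the alpha subunits of hypoxia-inducible factor (HIF), encoded by *HIF1A* and *EPAS1*, for degradation. When oxygen falls, the alpha subunits accumulate as proteins, pair with a constitutive partner and raise transcription of genes for glucose transporters, glycolytic enzymes, lactate dehydrogenase and pyruvate dehydrogenase kinases. Glycolysis converts glucose to pyruvate, which lactate dehydrogenase turns into lactate or which enters the mitochondria. HIF activity is set largely at the protein level, which RNA counts do not measure.

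HIF binds DNA at a short core word, ACGTG or GCGTG, and MYC and related factors bind the E-box CACGTG, which holds ACGTG on both strands. The promoters of 5 members are shown to place these words beside the expression values. They are the genes of both HIF alpha subunits and *LDHA*, which carried several words and fell with 1 siRNA. *ERO1A* was taken as a gene that fell with the other siRNA, and *PDK1* as a gene that fell without any word in the stretch searched. Each sequence is the stretch of 250 bases before 1 RefSeq start site of the gene on GRCh38.p14, given 5′ to 3′ on the strand of the gene. Each ACGTG or GCGTG of either strand is in capitals (CACGT and CACGC are the reverse strand forms). Only 1 start site per gene was used, and other start sites and sequence outside the 250 bases were not searched. The stretch of *ERO1A* lies inside the span of the gene in the count files, and those of *HIF1A*, *EPAS1* and *LDHA* overlap the spans of their genes.
HIF1A, chr14:61695263-61695512, plus strand: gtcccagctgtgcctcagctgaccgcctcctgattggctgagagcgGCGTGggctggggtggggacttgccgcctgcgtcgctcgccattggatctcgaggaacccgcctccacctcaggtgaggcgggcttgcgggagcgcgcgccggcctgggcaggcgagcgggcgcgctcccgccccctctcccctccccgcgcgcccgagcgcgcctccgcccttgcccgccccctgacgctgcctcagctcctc
EPAS1, chr2:46297157-46297406, plus strand: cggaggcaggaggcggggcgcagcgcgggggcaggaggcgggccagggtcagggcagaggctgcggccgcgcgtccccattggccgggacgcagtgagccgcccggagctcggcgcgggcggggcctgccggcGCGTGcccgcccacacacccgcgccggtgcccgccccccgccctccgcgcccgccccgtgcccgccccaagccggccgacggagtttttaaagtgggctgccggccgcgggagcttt
LDHA, chr11:18394313-18394562, plus strand: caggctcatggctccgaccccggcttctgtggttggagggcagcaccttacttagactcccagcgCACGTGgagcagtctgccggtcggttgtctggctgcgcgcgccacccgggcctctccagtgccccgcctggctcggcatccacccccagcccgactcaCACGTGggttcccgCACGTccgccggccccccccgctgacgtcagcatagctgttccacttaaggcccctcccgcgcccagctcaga
ERO1A, chr14:52695559-52695808, minus strand: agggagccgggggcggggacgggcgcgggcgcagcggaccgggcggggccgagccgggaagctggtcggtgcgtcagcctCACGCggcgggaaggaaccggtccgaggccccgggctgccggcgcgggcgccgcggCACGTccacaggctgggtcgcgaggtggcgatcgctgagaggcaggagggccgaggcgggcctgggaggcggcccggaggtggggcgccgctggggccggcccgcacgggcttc
PDK1, chr2:172555123-172555372, plus strand: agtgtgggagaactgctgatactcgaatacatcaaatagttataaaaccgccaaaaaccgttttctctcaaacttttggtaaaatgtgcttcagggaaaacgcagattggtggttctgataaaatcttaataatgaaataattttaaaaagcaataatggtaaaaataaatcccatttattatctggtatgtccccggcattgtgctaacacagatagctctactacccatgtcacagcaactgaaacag

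A RefSeq promoter was found for 35 of the 39 members, and *VEGFA*, *SLC2A3*, *BNIP3L* and *SLC16A1* have no entry. Of these 35, 23 (65.7%) held ACGTG or GCGTG on either strand, against 50.8% of the 14624 promoters searched. ACGTG alone was found in 40% of member promoters and 20.9% of all promoters. GCGTG was found in 42.9% of member promoters, near the 39.4% of all promoters. CACGTG was found in 14.3% and 7.86%, respectively, among them *LDHA*, *GAPDH*, *BNIP3*, *ALDOC* and *ANKRD37*. Among members that were lower with si025, 10 of 18 held ACGTG or GCGTG (55.6%), whereas 11 of 15 tested members that were not lower held a word (73.3%). In the same order the shares were 38.9% and 40% for ACGTG, and 33.3% and 53.3% for GCGTG. In *LDHA* 5 word positions lay between 185 and 73 bases before the start site, and they include both strands of 2 E-boxes.

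Read pairs assigned to genes ranged from 11649811 to 28492259 per library. The members together took between 1.08% and 1.13% of the counts in control libraries, between 0.906% and 0.962% with si025 and between 1.10% and 1.11% with si033. The share with si025 lay below that of every other library. All 11 luminal prostate and VCaP markers were above 1 CPM (counts scaled to a common library size after TMM, a normalization for library composition). Their summed level was 9523 to 9768 CPM in control, 11682 to 12004 CPM with si025 and 8385 to 8726 CPM with si033, and the part of this difference in the values below was not tested. Markers of leukocytes, endothelium and fibroblasts summed to at most 4.16 CPM in any library, and in each of these lists 1 marker had no count in any library. The fibroblast sum was 1.58 to 2.53 CPM in control, 3.27 to 4.16 CPM with si025 and 1.38 to 2.24 CPM with si033. For endothelium it was 0.786 to 1.09, 1.32 to 2.25 and 0.619 to 1.15 CPM, and for leukocytes 1.31 to 1.67, 0.992 to 1.33 and 0.619 to 1.28 CPM. Against all tested genes, the tested members were abundant, with a median of 68.9 CPM in control cells against 31.6 CPM.

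A gene was called when its adjusted p was under 0.05 in edgeR's quasi-likelihood test over 12810 genes. With si025, 25 of the 36 tested members were called (69.4%, against 61.7% of all tested genes). Of these, 5 were higher than control (13.9% of tested members, where 32.9% of all tested genes were called higher) and 20 were lower (55.6%, where 28.8% of all genes were called lower). With si033, 20 members were called (55.6%, near the 54.8% of all genes). Of these, 5 were higher (13.9%, against 26.9% of all genes) and 15 lower (41.7%, against 27.8% of all genes). The median log2 fold change of the tested members was -0.17 with si025, while that of all genes was 0.02. With si033 it was -0.04, and that of all genes was 0.0033. The si033 median moved with single libraries, to -0.024 without control replicate 2, -0.025 without si033 replicate 1, -0.070 without control replicate 1, -0.074 without control replicate 3 and -0.083 without si033 replicate 3. The fall with si025 was most regular in lower glycolysis and in pyruvate and lactate handling, where 10 of 11 members were lower and none was higher. Most changes were small, and 2 tested members with each siRNA were called at 2-fold or more (5.56%, against 7.02% of all genes with si025 and 5.14% with si033). In bulk RNA, fewer cells of a kind and less RNA per cell cannot be told apart. The plot of fold changes by role shows these differences.

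**Figure D1:**
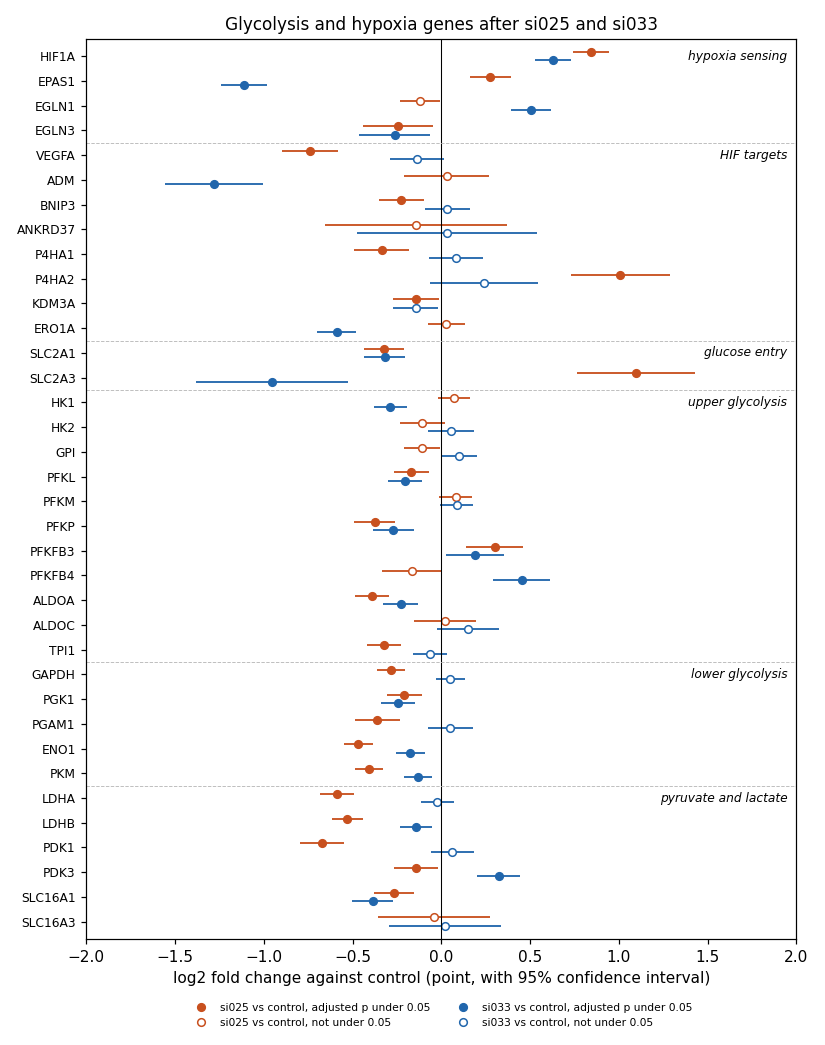
Log2 fold change of the 36 tested members against control (x axis, with 95% confidence intervals) for si025 and si033, ordered by role (y axis). Filled points have an adjusted p under 0.05. Points of lower glycolysis lie left of 0 with si025 in all 5 genes, while *EPAS1* and *SLC2A3* lie on opposite sides of 0 with the different siRNAs.

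*HIF1A* and *PFKFB3* were called higher with both siRNAs, the latter by a narrow margin with si033. They are 2 of the 36 tested members, whereas 15.1% of all tested genes were called higher with both siRNAs. Both siRNAs gave lower calls for *EGLN3*, *SLC2A1*, *PFKL*, *PFKP*, *ALDOA*, *PGK1*, *ENO1*, *PKM*, *LDHB* and *SLC16A1*. These 10 members make up 27.8% of the tested members, and 14.6% of all tested genes were called lower with both siRNAs. The siRNA groups share the same 3 control libraries, so these calls are not independent of each other. In 3 members, *EPAS1*, *SLC2A3* and *PDK3*, the siRNAs were called in opposite directions, as were 8.39% of all tested genes. *P4HA2* was higher and 9 members were lower with si025 and not called with si033. Only with si033 were *EGLN1* and *PFKFB4* called higher and *ADM*, *ERO1A* and *HK1* called lower. *ANKRD37*, *HK2*, *GPI*, *PFKM*, *ALDOC* and *SLC16A3* were called with neither siRNA. For calls with only si025, only si033 or neither, the share of all genes was not counted.

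Among the genes of oxygen sensing, *HIF1A* (chromosome 14, 61695401 to 61748259, hg38) rose with both siRNAs. Its level was 170.4, 171 and 177 CPM in the control libraries, 320.3, 294 and 318 CPM with si025, and 249, 285 and 269 CPM with si033. Every knockdown library was above every control library, and every si025 library was above every si033 library. It rose 1.80-fold after si025 (0.84 on the log2 scale, SE 0.05, adjusted *p* = 1.18e-12) and 1.55-fold with si033 (0.63, SE 0.05, adjusted *p* = 2.75e-10).

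*EPAS1* (chromosome 2, 46297402 to 46386703), which encodes the other HIF alpha subunit of this list, moved in opposite directions. It stood at 64.9, 63.8 and 56.9 CPM in control, 75.8, 71.4 and 76.1 CPM with si025, and 27.8, 29.5 and 28.0 CPM with si033. The 3 groups did not overlap. Against control it changed by 0.28 on the log2 scale with si025 (SE 0.06, adjusted *p* = 0.000174) and by -1.11 with si033 (SE 0.06, adjusted *p* = 7.44e-13). Per kilobase of exon, *EPAS1* accounted for 22.4 ± 1.56% of the summed level of *HIF1A* and *EPAS1* in control, 16.2 ± 0.186% with si025 and 7.89 ± 0.298% with si033 (SD, n = 3 each). *HIF1A* was thus the more abundant transcript of the pair in each group.

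The hydroxylase gene *EGLN1* (chromosome 1, 231363751 to 231425044) was higher with si033. Its level was 68.2, 66.3 and 68.6 CPM in control, 61.2, 64.4 and 61.3 CPM with si025, and 91.7, 104 and 93.3 CPM with si033. The si033 libraries lay above all others and the si025 libraries below all others. The log2 fold change was 0.51 with si033 (SE 0.05, adjusted *p* = 3.70e-08), whereas the value of -0.12 with si025 did not pass (adjusted *p* = 0.0624) but did in 6 of 17 alternatives, among them without si025 replicate 2 (-0.15, adjusted *p* = 0.0401). *EGLN3*, a second hydroxylase, was lower with both siRNAs, by -0.24 and -0.26 (adjusted *p* = 0.0294 and 0.0250). Both *EGLN3* calls rested on small margins and were lost without control replicate 3 (-0.17 and -0.18, adjusted *p* = 0.198 and 0.200) and in DESeq2 (adjusted *p* = 0.0790 and 0.0907).

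Of the 11 members grouped as HIF targets outside the glycolytic pathway, *MXRA5* among them, 8 were tested. With si025 4 were lower (50%, against 28.8% of all genes) and 1 was higher (12.5%, against 32.9%). With si033 2 were lower (25% of those tested, near the 27.8% of all genes) and none was higher, where 26.9% of all genes were. *VEGFA* (chromosome 6, 43770209 to 43786487), the angiogenic growth factor, stood at 43.4, 45.6 and 42.5 CPM in control, 28.0, 26.2 and 24.8 CPM with si025, and 36.3, 35.7 and 44.8 CPM with si033. The si025 libraries lay below all others, and 1 si033 library lay within the control range. *VEGFA* fell by 0.74 on the log2 scale with si025 (SE 0.08, adjusted *p* = 1.79e-08). With si033 the value was -0.14 (adjusted *p* = 0.114), and without si033 replicate 3 it was -0.28 and called (adjusted *p* = 0.00268).

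*ADM* (chromosome 11, 10304980 to 10307402), which encodes the vasodilator peptide adrenomedullin, was called lower with si033 and not with si025. It stood at 9.08, 9.57 and 8.61 CPM in control, 9.34, 8.44 and 9.86 CPM with si025, and 2.88, 3.87 and 4.07 CPM with si033. Control and si025 libraries overlapped, and all si033 libraries were below both. The log2 fold change was -1.28 with si033 (SE 0.13, adjusted *p* = 3.00e-08) and 0.03 with si025 (95% confidence interval -0.21 to 0.27, adjusted *p* = 0.843).

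*ERO1A* (chromosome 14, 52639915 to 52695931), an oxidase that drives disulfide bond formation in the endoplasmic reticulum, was also lower with si033 alone. Its level was 89.0, 89.2 and 93.2 CPM in control, 93.8, 91.1 and 92.6 CPM with si025, and 55.5, 61.1 and 63.1 CPM with si033. The si033 libraries lay well below the other 6, which overlapped. *ERO1A* fell by 0.59 on the log2 scale (SE 0.05, adjusted *p* = 2.29e-09), while the interval with si025 ran from -0.077 to 0.13.

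*P4HA2* (chromosome 5, 132190147 to 132227863) encodes a catalytic subunit of the prolyl hydroxylase that modifies collagen. It stood at 3.75, 3.41 and 3.52 CPM in control, 6.54, 7.29 and 7.43 CPM with si025, and 4.20, 3.87 and 4.38 CPM with si033. No si025 library overlapped the others. With si025 it rose 2.01-fold (1.01 on the log2 scale, SE 0.14, adjusted *p* = 9.06e-07), and the value with si033 was 0.24 (adjusted *p* = 0.171). Its more abundant relative *P4HA1* was lower with si025 (-0.34, adjusted *p* = 0.000462), so that the share of *P4HA2* in their summed CPM per kilobase was 3.80 ± 0.344% in control, 8.94 ± 0.526% with si025 and 4.19 ± 0.732% with si033.

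*BNIP3*, a mitophagy receptor, was lower with si025 by -0.22 (adjusted *p* = 0.00309), with 0.03 for si033 (adjusted *p* = 0.673). *KDM3A*, a histone demethylase, gave -0.14 with each siRNA, which passed with si025 (adjusted *p* = 0.0493) and not with si033 (adjusted *p* = 0.0528). The si025 call of *KDM3A* was lost in 7 of 17 alternatives, and the si033 value passed in 8. *ANKRD37* was low, at most 2.1 CPM in each library, and no difference was detectable. *CA9*, a membrane carbonic anhydrase and a widely used mark of hypoxia, had 0 to 3 counts per library. *MXRA5*, which encodes a matrix protein, had no count in any library. Both were left untested.

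*BNIP3L*, the second mitophagy receptor, also had 0 counts in all 9 libraries, and 3 counts correspond to between 0.104 and 0.262 CPM across libraries. It lies on chromosome 8 from 26383007 to 26413128. The adjacent gene *PPP2R2A* (26291491 to 26372680), a regulatory subunit of protein phosphatase 2A, had 0 counts in all 9 libraries too. *EBF2* (25841730 to 26045124), on the far side of *PPP2R2A*, had 0 to 9 counts per library. *PNMA2* (26504680 to 26513967) had 1 to 14 counts per library, and *DPYSL2* (26514193 to 26658177) had 185 to 726. These neighbours were chosen after the value of *BNIP3L* was seen, and the cause of its absence was not tested.

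**Figure D2:**
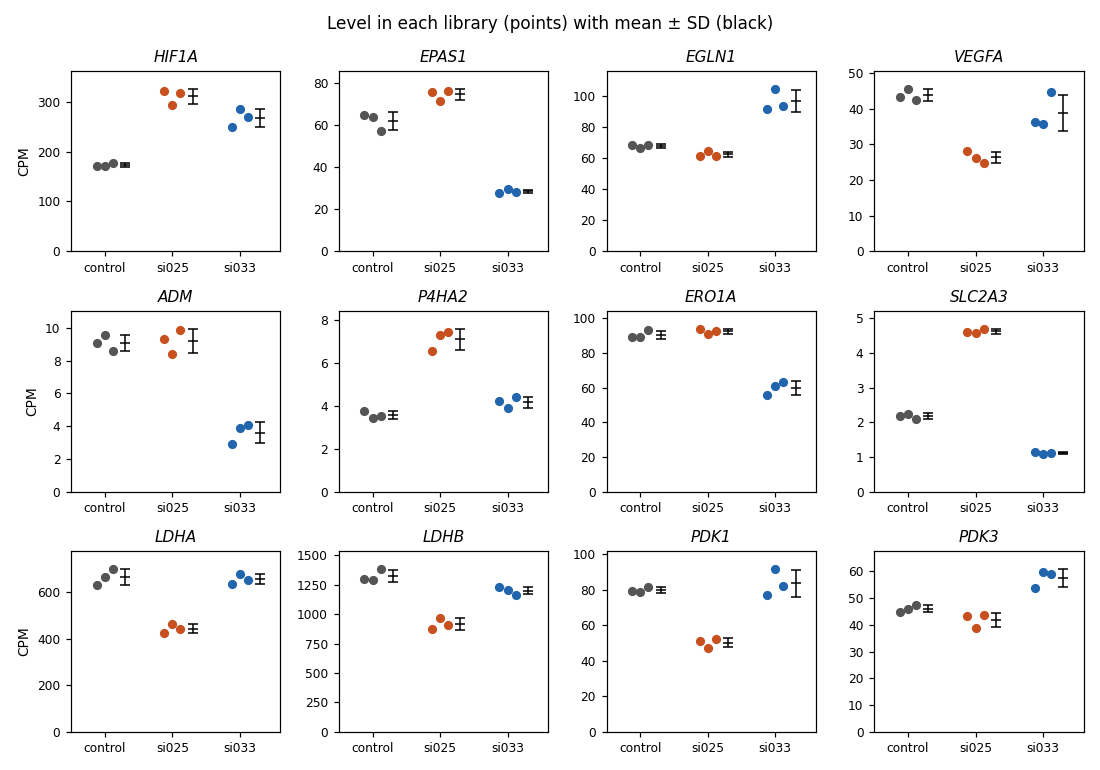
CPM (y axis, from 0) in each of the 9 libraries for the 12 members that were called with an absolute log2 fold change of at least 0.5 or in opposite directions, with the mean and SD of 3 libraries in black. In *SLC2A3* and *EPAS1* the si025 points lie highest and the si033 points lowest, while in *LDHA*, *PDK1* and *VEGFA* the si025 points lie below all others.

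Glucose enters cells through facilitative transporters. *SLC2A1*, the gene of the basal transporter GLUT1, stood between 66.7 and 71.6 CPM in control, 52.3 and 56.9 CPM with si025, and 52.6 and 56.4 CPM with si033. It fell with both siRNAs by 0.32 on the log2 scale (adjusted *p* = 1.91e-05 and 3.12e-05), and the siRNA groups overlapped.

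*SLC2A3* (chromosome 12, 7919228 to 7936296), the gene of the high affinity transporter GLUT3, was much less abundant and moved in opposite directions. Its level was 2.18, 2.25 and 2.09 CPM in control, 4.59, 4.57 and 4.69 CPM with si025, and 1.15, 1.08 and 1.10 CPM with si033. The 3 groups were far apart compared with the spread within each. For si025 the log2 fold change was 1.10 (SE 0.16, adjusted *p* = 3.12e-06) and for si033 it was -0.95 (SE 0.21, adjusted *p* = 0.000448). Its share of the summed CPM per kilobase of both transporters was 2.87 ± 0.0738% in control, 7.32 ± 0.322% with si025 and 1.85 ± 0.0844% with si033. *SLC2A3* has a near-identical paralog, so reads shared between the copies may be missing from these counts.

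In upper glycolysis, from hexokinase to triose phosphate isomerase and with the enzymes that set fructose 2,6-bisphosphate, 11 members were tested. With si025 4 were lower (36.4%, against 28.8% of all genes) and 1 was higher (9.09%, against 32.9%). With si033 4 were lower (36.4%, against 27.8% of all genes) and 2 were higher (18.2%, against 26.9%). *HK1*, the main hexokinase transcript here, was lower with si033 (-0.29, adjusted *p* = 8.41e-06), and its si025 value of 0.07 did not pass (adjusted *p* = 0.161). *HK2*, its inducible relative, was called with neither siRNA, although its si025 value was -0.23 once offsets for gene length and GC content were added (adjusted *p* = 0.000692). *GPI*, the isomerase of the second step, gave -0.11 with si025 (adjusted *p* = 0.0587), which passed in 10 of 17 alternatives, among them without control replicate 1 (-0.15, adjusted *p* = 0.0296). *PFKL* and *PFKP*, genes of the liver and platelet forms of phosphofructokinase, were lower with both siRNAs, with log2 fold changes from -0.37 to -0.17. *PFKM*, the muscle form, gave 0.08 and 0.09 (adjusted *p* = 0.115 and 0.106).

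*PFKFB3* and *PFKFB4* encode bifunctional enzymes that make and remove fructose 2,6-bisphosphate, the activator of phosphofructokinase. *PFKFB3* was higher with both siRNAs, by 0.30 (adjusted *p* = 0.00197) and 0.19 (adjusted *p* = 0.0490). The si033 call was lost in 11 of 17 alternatives, among them DESeq2 (adjusted *p* = 0.184), the fit without control replicate 3 (0.14, adjusted *p* = 0.226) and that without si033 replicate 3 (0.057, adjusted *p* = 0.596), and both calls were lost with offsets for gene length and GC content (0.12 and 0.12, adjusted *p* = 0.140 and 0.175). *PFKFB4* was higher with si033 (19.4 to 23.3 CPM in control, 27.6 to 30.6 CPM with si033, log2 fold change 0.45, adjusted *p* = 3.33e-05). Its si025 value of -0.16 did not pass (adjusted *p* = 0.0857). That value was called lower in 3 of 17 alternatives, among them the offsets for gene length and GC content (-0.36, adjusted *p* = 0.000116). *ALDOA*, the main aldolase, was lower with both (-0.39 and -0.23), and *TPI1* was lower with si025 (-0.32, adjusted *p* = 2.61e-06), while its si033 value of -0.06 did not pass (adjusted *p* = 0.251).

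All 5 members of lower glycolysis, from *GAPDH* to *PKM*, were lower with si025, where 28.8% of all genes were lower. With si033 3 were lower (60%, against 27.8% of all genes). *ENO1* (enolase) stood at 1308, 1409.6 and 1381 CPM in control, 969, 1035 and 963 CPM with si025, and 1222, 1217 and 1194 CPM with si033. The 3 groups did not overlap, and si033 lay between the others. *ENO1* fell by 0.47 on the log2 scale with si025 (SE 0.04, adjusted *p* = 8.68e-10) and by 0.17 with si033 (SE 0.04, adjusted *p* = 0.000825). *PKM* (pyruvate kinase) gave -0.41 and -0.13 (adjusted *p* = 3.42e-09 and 0.00475), and gene-level counts do not separate its muscle type isoforms. *PGK1* (phosphoglycerate kinase) fell about equally with si025 and si033, by -0.21 and -0.24 (adjusted *p* = 0.000493 and 0.000117).

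*GAPDH*, a glycolytic dehydrogenase that is often used as a reference gene, stood at 3142, 3287 and 3235 CPM in control, 2541, 2797 and 2596 CPM with si025, and 3369, 3354 and 3293 CPM with si033. It was lower with si025 (-0.28, SE 0.04, adjusted *p* = 1.16e-06). With si033 the value was 0.05 (95% confidence interval -0.029 to 0.13, adjusted *p* = 0.271), although each si033 library was above each control library. *PGAM1* (phosphoglycerate mutase) followed the same order, with -0.36 for si025 (adjusted *p* = 2.87e-05) and 0.05 for si033 (adjusted *p* = 0.518).

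The 14 glycolytic enzyme genes from hexokinase to pyruvate kinase had summed levels (mean ± SD, n = 3) of 8290 ± 245 CPM in control, 6736 ± 271 CPM after si025 and 7998 ± 108 CPM after si033. Without *GAPDH* the sums were 5069 ± 171, 4091 ± 137 and 4659 ± 68.8 CPM. Several of these genes, including *GAPDH*, *PGK1*, *PGAM1*, *TPI1*, *ENO1* and *ALDOA*, have processed pseudogenes. So do *LDHA* and *LDHB*, which are not part of these sums. Read pairs with several matches were not counted, so the levels of all these genes are less certain.

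**Figure D3:**
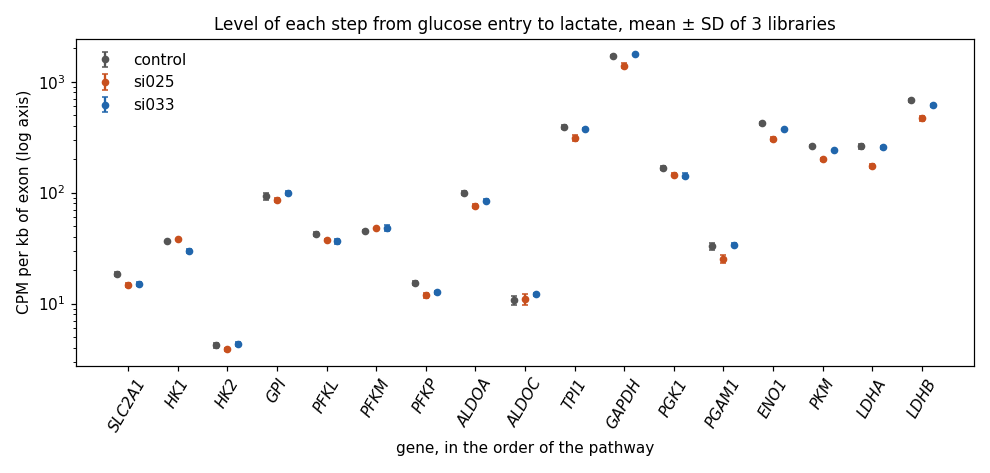
CPM per kilobase of exon (y axis, log scale) for the transporter *SLC2A1* and 16 enzyme genes in pathway order (x axis), as mean ± SD of 3 libraries in control, si025 and si033. *GAPDH* is the most abundant of those shown per length in each group and *HK2* the least, and from *TPI1* to *LDHB* the si025 mean lies below the control mean at every step.

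At the end of the pathway, 5 of 6 members were lower with si025 (83.3%, against 28.8% of all genes). With si033 2 were lower (33.3%, against 27.8% of all genes) and 1 was higher (16.7%, against 26.9%). *LDHA* (chromosome 11, 18394389 to 18408218), the gene of the lactate dehydrogenase subunit that favours lactate formation, stood at 631, 666 and 698 CPM in control, 425, 463 and 440.1 CPM with si025, and 635, 678 and 652 CPM with si033. All si025 libraries were below the other 6, among which control and si033 overlapped. *LDHA* fell by 0.59 on the log2 scale with si025 (SE 0.05, adjusted *p* = 1.10e-10), whereas the value with si033 was -0.02 (95% confidence interval -0.12 to 0.069, adjusted *p* = 0.683).

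*LDHB* (chromosome 12, 21635342 to 21657971), the other subunit of the enzyme, was the more abundant of the pair. It stood at 1298, 1289 and 1382 CPM in control, 874, 967 and 909 CPM with si025, and 1228, 1208 and 1164 CPM with si033. The 3 groups did not overlap. *LDHB* changed by -0.53 on the log2 scale after si025 (SE 0.04, adjusted *p* = 2.85e-10) and by -0.14 with si033 (adjusted *p* = 0.00749), and the latter was lost without control replicate 3 (-0.10, adjusted *p* = 0.0778). The share of *LDHA* in the summed CPM per kilobase of both subunits was 27.8 ± 0.627% in control, 27.0 ± 0.161% with si025 and 29.5 ± 0.963% with si033.

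Pyruvate dehydrogenase kinases hold pyruvate back from the mitochondria by inhibiting pyruvate dehydrogenase. *PDK1* (chromosome 2, 172555373 to 172672693) stood at 79.6, 78.6 and 81.7 CPM in control, 51.2, 47.2 and 52.5 CPM with si025, and 77.0, 91.7 and 82.4 CPM with si033. Every si025 library was below every other library. *PDK1* fell by 0.67 on the log2 scale with si025 (SE 0.06, adjusted *p* = 1.73e-09), and its value with si033 was 0.06 (adjusted *p* = 0.386).

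*PDK3* (chromosome X, 24465227 to 24550466), a second kinase of this family, was higher with si033. Its level was 44.7, 45.9 and 47.4 CPM in control, 43.1, 38.9 and 43.5 CPM with si025, and 53.7, 59.9 and 58.9 CPM with si033. The groups did not overlap. The log2 fold change was 0.32 with si033 (SE 0.06, adjusted *p* = 7.85e-05) and -0.14 with si025 (adjusted *p* = 0.0457). The si025 call was lost without si025 replicate 2 (-0.090, adjusted *p* = 0.229), without control replicate 3 (-0.12, adjusted *p* = 0.160) and in DESeq2 (-0.16, adjusted *p* = 0.0612), so the opposite direction of *PDK3* rests on a marginal call.

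Lactate leaves cells through monocarboxylate transporters. *SLC16A1*, the gene of MCT1, was lower with both siRNAs (-0.27 and -0.39, adjusted *p* = 0.000207 and 3.44e-06). *SLC16A3*, the gene of MCT4, was low in these cells, between 4.20 and 7.04 CPM, with values of -0.04 and 0.02 (adjusted *p* = 0.834 and 0.915).

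**Figure D4:**
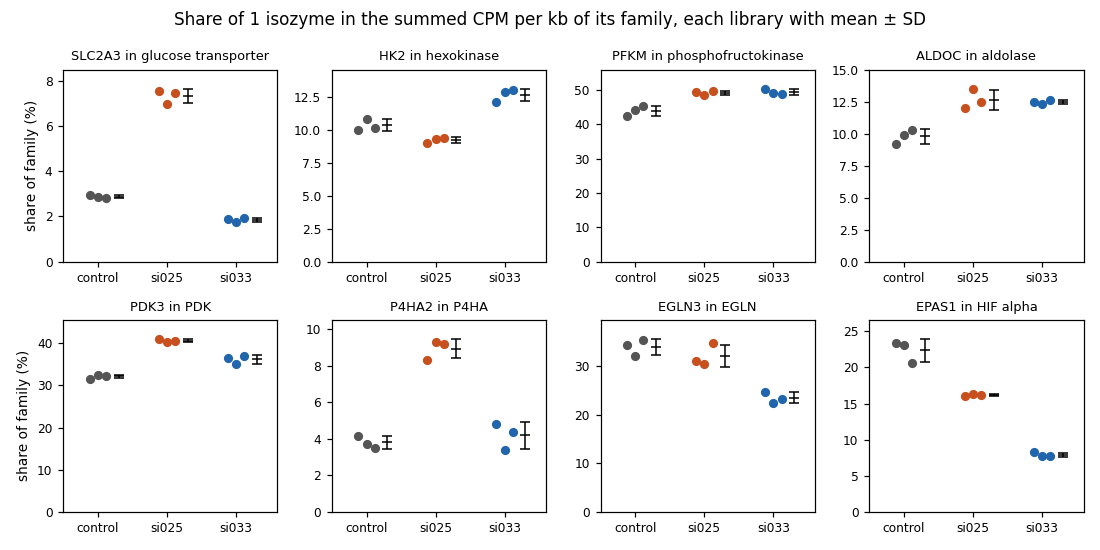
Share of 1 isozyme gene in the summed CPM per kilobase of the listed members of its family (y axis, percent, from 0) in each library, with mean and SD in black, for 8 of the 11 families. The share of *SLC2A3* is highest with si025, the share of *EPAS1* is lowest with si033, and the share of *PFKM* is higher with both siRNAs than in control.

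The balance between isozymes was compared over 11 families. With 3 libraries against 3, an exact two-sided permutation test cannot give a p below 0.1, and after adjustment the lowest values were 0.121 for si025, 0.153 for si033 and 0.144 between the siRNAs, so no share passed a threshold of 0.05. *PFKM* took 44.0 ± 1.43% of the phosphofructokinase level in control, 49.3 ± 0.642% with si025 and 49.4 ± 0.856% with si033. *ALDOC* took 9.78 ± 0.566%, 12.7 ± 0.770% and 12.5 ± 0.131% of the aldolase level, and *HK2* 10.4 ± 0.451%, 9.25 ± 0.217% and 12.7 ± 0.451% of the hexokinase level. The share of *PDK3* in the summed level of *PDK1* and *PDK3* was 32.1 ± 0.448%, 40.7 ± 0.307% and 36.2 ± 1.09%, respectively.

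To place the members in their pathways, 3 further lists were counted. Of 31 tested genes among 47 other glycolysis and pyruvate genes, si025 gave 13 higher and 7 lower, and si033 gave 9 higher and 12 lower. These are 41.9% and 22.6% with si025, against 32.9% and 28.8% of all genes, and 29% and 38.7% with si033, against 26.9% and 27.8%. The neuronal enolase gene *ENO2* rose with both siRNAs (0.83 and 0.63, adjusted *p* = 3.21e-09 and 5.28e-07), while the muscle form *ENO3* was lower with both siRNAs (-0.35 and -0.54, adjusted *p* = 0.0202 and 0.00130). *DLAT*, a subunit of pyruvate dehydrogenase, was lower with both (-0.46 and -0.32, adjusted *p* = 5.42e-09 and 1.99e-06), and *LDHD* was higher with both (0.82 and 0.78, adjusted *p* = 0.0184 and 0.0296). *LDHD* was low, at 0.502 to 1.32 CPM per library, and its si033 libraries overlapped those of control. The facilitative transporter gene *SLC2A10* rose with si025 (2.24, adjusted *p* = 6.10e-12), with -0.33 for si033 (adjusted *p* = 0.168). *SLC2A12*, of the same family, was higher with si033 (0.79, adjusted *p* = 0.000927), with 0.27 for si025 (adjusted *p* = 0.239). *GPD1*, at 1.01 to 2.20 CPM per library, was lower with si033 (-0.60, adjusted *p* = 0.0285), with 0.07 for si025 (adjusted *p* = 0.861).

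Of 47 tested genes among 53 other HIF pathway and hypoxia genes, si025 gave 22 higher and 11 lower, and si033 gave 16 higher and 14 lower. The shares were 46.8% and 23.4% with si025, against 32.9% and 28.8% of all genes. With si033 they were 34.0% and 29.8%, against 26.9% and 27.8%. *IGFBP3*, which encodes a binding protein of insulin-like growth factors, rose with both siRNAs, from 52.6 ± 5.0 CPM in control to 136 ± 7.0 CPM after si025 and 252 ± 18.9 CPM after si033 (log2 fold change 1.39 and 2.27, adjusted *p* = 4.99e-14 and 5.53e-18). *LOX*, a collagen crosslinking enzyme, fell with both (-0.78 and -1.81, adjusted *p* = 0.00114 and 2.39e-07). *TGFB3* rose with both (1.2 and 4.27, adjusted *p* = 0.00288 and 3.11e-13), from 0.565 ± 0.268 CPM in control to 1.19 ± 0.0523 CPM after si025 and 10.2 ± 1.67 CPM after si033. *TMEM45A* also rose with both (2.31 and 0.60, adjusted *p* = 1.67e-10 and 0.0252), and the lipoprotein receptor gene *VLDLR* was lower with both (-0.34 and -0.73, adjusted *p* = 1.71e-05 and 4.48e-10). *HILPDA*, a lipid droplet gene, was lower with si025 (-0.58, adjusted *p* = 1.18e-06), with 0.07 for si033 (adjusted *p* = 0.437).

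Of 30 tested genes among 32 pentose phosphate and glycogen genes, si025 gave 10 higher and 10 lower, and si033 gave 6 higher and 12 lower. With si025 the shares of 33.3% and 33.3% lay near the 32.9% and 28.8% of all genes. With si033 they were 20% and 40%, against 26.9% and 27.8%. *GALK1*, the galactokinase gene, was higher with both siRNAs (0.89 and 0.49, adjusted *p* = 1.01e-05 and 0.00839). *UGDH*, which makes UDP-glucuronate, fell from 255 ± 6.01 CPM in control to 198 ± 4.81 CPM after si025 and 108 ± 9.88 CPM after si033 (-0.36 and -1.23, adjusted *p* = 1.64e-06 and 5.09e-15). *RPIA*, of the pentose phosphate pathway, was lower with si025 (-0.73, adjusted *p* = 1.02e-07), where *GYG1*, the glycogenin gene, was higher (0.70, adjusted *p* = 1.69e-09), and their si033 values of 0.08 and 0.03 did not pass (adjusted *p* = 0.427 and 0.771). *PGM1*, which links glycogen to glycolysis, was called in opposite directions (0.35 and -0.72, adjusted *p* = 2.46e-06 and 1.44e-10), and *GALT* was higher with both (0.59 and 0.49, adjusted *p* = 1.69e-06 and 3.42e-05).

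Comparing the siRNAs directly, 24 of the 36 tested members differed (66.7%, against 60.9% of all tested genes). Of these, 7 were higher with si025 than with si033 (19.4%, against 31.2% of all genes) and 17 lower (47.2%, against 29.7% of all genes). The median difference was -0.14 over the tested members and -0.0015 over all genes, and without si025 replicate 3 the former was -0.075. *SLC2A3*, *EPAS1* and *ADM* were higher with si025 than with si033 by 2.05, 1.39 and 1.31 on the log2 scale (adjusted *p* = 1.10e-09, 4.37e-15 and 1.11e-08). *PDK1*, *LDHA* and *VEGFA* were lower with si025 than with si033, by -0.73, -0.56 and -0.60 (adjusted *p* = 3.49e-10, 2.12e-10 and 4.96e-07). No difference passed for *SLC2A1* (95% confidence interval -0.12 to 0.11), *PGK1* (-0.060 to 0.13) or *PFKL* (-0.060 to 0.13). With offsets for gene length and GC content *PFKL* turned to -0.096 and was called (adjusted *p* = 0.00982).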

How the data were processed

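RNA was sequenced from VCaP cells in 3 groups of 3 libraries, grouped by their titles, from 1.3 µg of total RNA each with a stranded total RNA kit. The labels and the methods of the study name different extraction kits. The authors aligned reads to hg38 with HISAT2 2.1.0 and made the deposited counts with featureCounts 1.5.2, as raw whole-number read pair counts by gene on the sense strand, without normalization. The file headers name a RefSeq annotation and the methods GENCODE. Read pairs that matched several places were not counted.

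Counts were tested with edgeR 4.0.16 (R 4.3.3, quasi-likelihood test, TMM, default expression filter), with all 9 libraries in 1 fit of 3 group means. Adjustment over the 12810 tested genes followed Benjamini and Hochberg, and the test was checked on simulated data. SE was derived from the log2 fold change and its F statistic. CPM was divided by merged exon length where genes were compared. Library totals were 11649811 to 28492259 counts, and their number sets the counting error of low genes. Libraries of a group varied beyond counting noise (chi-square per degree of freedom 1.68 to 5.05), so all 9 libraries were kept as separate.

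The members, the pathway lists and the tests were chosen with earlier results of these data known. Of the members, those called with an absolute log2 fold change of at least 0.5 against control with either siRNA, or in opposite directions, were given per library. *ENO1* and *GAPDH* were added after their values were seen. From each pathway list, the 2 called genes with the largest fold change in each direction per siRNA were named, except 1 gene that is not reported here. Promoters came from RefSeq (GRCh38.p14), with 1 start site per gene, and all 35 equalled hg38 at their coordinates. Alternatives were RLE and upper quartile scaling, no expression filter, DESeq2 1.42.0, fits of only the groups compared, a replicate block and each library left out. Offsets for gene length and GC content and a test against a 1.2-fold change were added after the data were seen.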

Additional observations from a re-analysis of the deposited data

Results flagged for a closer look

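In 24 of the 36 tested members (66.7%) the effects of the siRNAs differed by the direct contrast of si025 with si033 (edgeR quasi-likelihood test, adjusted p under 0.05). The same contrast called 60.9% of all tested genes, 31.2% higher and 29.7% lower. In the following members the log2 fold change was higher with si025 than with si033, by the difference in parentheses: *SLC2A3* (2.05), *EPAS1* (1.39), *ADM* (1.31), *P4HA2* (0.77), *ERO1A* (0.62), *HK1* (0.36) and *HIF1A* (0.21). In the following members it was lower with si025: *PDK1* (-0.73), *EGLN1* (-0.63), *PFKFB4* (-0.62), *VEGFA* (-0.60), *LDHA* (-0.56), *PDK3* (-0.47), *P4HA1* (-0.42), *PGAM1* (-0.41), *LDHB* (-0.39), *GAPDH* (-0.34), *ENO1* (-0.29), *PKM* (-0.27), *BNIP3* (-0.26), *TPI1* (-0.26), *GPI* (-0.21), *HK2* (-0.16) and *ALDOA* (-0.16). Every member of lower glycolysis except *PGK1* is among the latter. The difference of *HK2* lost its call in DESeq2 (adjusted *p* = 0.0775), without si025 replicate 1 (adjusted *p* = 0.0827) and without si033 replicate 3 (adjusted *p* = 0.176).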

How the results depend on the processing

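Of 108 values (36 members in 3 comparisons), 69 were called, and none of these changed direction in any of the 17 alternatives. In 61 the call also held in every alternative other than the test against a 1.2-fold change. The other 8 were *EGLN3* and *PFKFB3* with each siRNA, *KDM3A* and *PDK3* with si025, *LDHB* with si033 and *HK2* between the siRNAs. The test against a 1.2-fold change by construction asks for larger changes. It called 3 members higher and 8 lower with si025, and 3 higher and 5 lower with si033. Between the siRNAs it called 6 members higher and 10 lower with si025 than with si033. Over all genes it called 3891, 2917 and 3686 genes against 7908, 7015 and 7801. Member counts under the other alternatives were within 1.5 times. Of 39 values that were not called, 15 gained a call in some alternative and 20 changed sign in some alternative. Of those given in the text, *LDHA* with si033 was 0.0052 under upper quartile scaling and ran from -0.050 to 0.019 with 1 library left out, *ADM* with si025 was -0.027 with offsets for gene length and GC content and ran from -0.032 to 0.096, *PDK1* with si033 ran from -0.0015 to 0.12, and *GAPDH* with si033 was -0.0058 with the offsets. The offsets also gave -0.059 for *HK1* and -0.0084 for *PFKM* with si025, -0.051 for *SLC16A3* with si033 (-0.0016 in DESeq2), and -0.096 for *PFKL* between the siRNAs, of which *PFKL* was called. With 1 library left out, *BNIP3* with si033 ran from -0.028 to 0.11, *SLC16A3* from -0.090 to 0.0079 (si025) or -0.22 to 0.18 (si033), and *SLC2A1* between the siRNAs from -0.042 to 0.022. The median of the tested members with si025 ran from -0.25 with these offsets, where the median of all genes was -0.039, to -0.14 under upper quartile scaling. With si033 it ran from -0.084 with the offsets to -0.015 under upper quartile scaling, and between the siRNAs from -0.21 with the offsets to -0.075 without si025 replicate 3. Same-numbered libraries deviated with correlations from -0.11 to 0.19, and 1 of 9 libraries correlated best with its own number in both other groups, so the numbers were not taken as pairs. With the replicate block, 5 members were higher and 21 lower with si025, 5 higher and 16 lower with si033, and 8 higher and 17 lower between the siRNAs. Depth limits *CA9*, *ANKRD37*, *SLC16A3* and *SLC2A3*, and genes of the further lists such as *LDHD* and *GPD1*, whose levels rest on few counts.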
